A study of Mus musculus with 8 samples.

Results

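This account follows 8 genes for factors that senescent cells secrete or carry on their surface, Plaur, Timp1, Icam1, Csf1, Igfbp7, Timp2, Cxcl1 and Mmp2, in RNA of pancreatic islets from mice given vehicle or PAHSA. PAHSAs are lipids in which palmitic acid is joined by an ester bond to a hydroxy stearic acid. Of the 8 listed genes, 7 are among the 13725 genes of the deposited table, and all 7 were among the 12231 genes tested. Mmp2, the gene of a matrix-degrading protease, was not analysed here. The list was drawn up with the difference between PAHSA and vehicle in these libraries known, so that difference is given for the 7 genes as a description, without a test.

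The islets came from NOD females aged 10 weeks, mice prone to autoimmune diabetes. There were 4 vehicle libraries, numbered 1, 3, 4 and 5 in the labels, and 4 PAHSA libraries, numbered 1, 2, 3 and 4, and values of single libraries are given below in that order. The extraction protocol speaks of islets pooled from 2 mice per sample, whereas the design text counts 4 mice, so it is not settled whether a library is 1 mouse or a pool. The dose, route and duration of treatment and the isomers in the PAHSA given are not stated in the sources used here. The libraries hold whole islets, with no sorting of cell types stated, so fewer cells of a type and less RNA per cell cannot be told apart. The study's title concerns cell senescence and the protection of beta cells.

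A senescent cell has stopped dividing for good and releases a mixture of proteins known as the senescence-associated secretory phenotype. The mixture holds proteases and their inhibitors, chemokines that draw in white blood cells, growth factors with their binding proteins, and adhesion molecules on the cell surface. The same genes are also active in fibroblasts, vessel cells and activated macrophages, and several of them are induced by inflammatory signals through the transcription factors NF-kB and AP-1. In islets, chemokines and adhesion molecules of this kind are known to take part in the recruitment of immune cells.

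The 250 bases before the RefSeq start of each of the 7 genes (GRCm38.p6) were searched on both strands for an NF-kB consensus motif, the AP-1 motif TGANTCA, the GC box GGGCGG and the TATA box TATAAA. To let the stretches be compared, the 5 genes with a lower mean in PAHSA are shown. Each stretch runs 5′ to 3′ on the gene's own strand from base -200 to base -11 before the start. The capitals mark matches to the NF-kB or AP-1 motif. They are Plaur at chr7:24462283-24462472 (plus strand), Timp1 at chrX:20869966-20870155 (plus), Icam1 at chr9:21015740-21015929 (plus), Csf1 at chr3:107760480-107760669 (minus) and Cxcl1 at chr5:90891045-90891234 (plus).
Plaur: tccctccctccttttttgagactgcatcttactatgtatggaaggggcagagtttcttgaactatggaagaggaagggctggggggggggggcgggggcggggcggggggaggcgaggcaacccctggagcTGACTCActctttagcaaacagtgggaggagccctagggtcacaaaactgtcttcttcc
Timp1: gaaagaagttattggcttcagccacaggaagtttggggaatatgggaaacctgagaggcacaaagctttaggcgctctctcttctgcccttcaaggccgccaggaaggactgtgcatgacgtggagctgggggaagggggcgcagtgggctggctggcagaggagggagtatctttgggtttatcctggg
Icam1: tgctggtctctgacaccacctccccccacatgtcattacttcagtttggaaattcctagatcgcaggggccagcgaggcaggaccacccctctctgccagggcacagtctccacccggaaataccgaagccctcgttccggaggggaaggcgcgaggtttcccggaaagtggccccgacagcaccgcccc
Csf1: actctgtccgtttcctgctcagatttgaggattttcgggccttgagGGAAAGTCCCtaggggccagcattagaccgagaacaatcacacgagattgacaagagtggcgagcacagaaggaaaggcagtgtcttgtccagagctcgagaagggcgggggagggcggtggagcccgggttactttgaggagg
Cxcl1: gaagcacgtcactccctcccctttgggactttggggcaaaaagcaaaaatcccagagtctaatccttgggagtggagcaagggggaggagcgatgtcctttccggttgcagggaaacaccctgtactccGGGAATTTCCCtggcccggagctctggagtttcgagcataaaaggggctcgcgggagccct

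The NF-kB motif was found in Cxcl1, from base -71 to -61 where a match on each strand overlaps the other, and in Csf1 from base -154 to -145. Of all 32851 windows of that length in the RefSeq table, 3.90% hold it. The AP-1 motif was found in Plaur, from base -69 to -63, and is present in 6.75% of all windows. GC boxes were found in 6 of the 7 genes, with Cxcl1 the exception, against 32.7% of all windows, and TATAAA in 0 of the 7 against 12.4%. No exact match to the NF-kB or AP-1 motif was found in the windows of Timp1, Icam1, Igfbp7 and Timp2. Only exact matches were counted. Sites that depart from a motif in any base, in Icam1 or elsewhere, were not searched for, so their absence is not shown. These matches describe letters and not bound sites.

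Levels are log2 CPM, that is, read counts scaled to library size, on a log2 scale. For the 7 genes the estimated counts behind a level ranged from 117 (Plaur in PAHSA replicate 1) to 6276 (Igfbp7 in PAHSA replicate 3). The effective library size recovered from the lowest value of each column lay between 35268423 and 45241772. The labelled tissue was checked against its markers, and 10 of 11 beta cell genes were in the table, summing to between 137132 and 180008 CPM in vehicle and between 141476 and 175773 CPM in PAHSA.

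Set per length, as CPM per kilobase of the longest coding transcript, Igfbp7 stood above the others in all 8 libraries. Its level was 112 ± 11.3 CPM per kilobase in vehicle and 116 ± 17.04 in PAHSA (SD, n = 4). In vehicle the order after it was Timp1 at 38.6 ± 15.7, Cxcl1 at 31.7 ± 18.005, Icam1 at 15.6 ± 8.29, Plaur at 8.66 ± 2.57, Csf1 at 7.45 ± 4.18 and Timp2 at 5.30 ± 2.74. In PAHSA it was Timp1 at 17.1 ± 6.72, Cxcl1 at 11.7 ± 4.12, Timp2 at 6.48 ± 1.90, Icam1 at 6.45 ± 2.62, Csf1 at 5.83 ± 1.11 and Plaur at 3.55 ± 1.49. In both groups the ranges of Igfbp7 and Timp1 did not overlap, whereas every later pair of neighbours in the order did. The place of Csf1 rests on the transcript used, since with the median length of its 6 coding transcripts its level was 21.2 CPM per kilobase in vehicle and 16.6 in PAHSA. The same holds for Timp2, at 8.88 in vehicle and 10.9 in PAHSA with its median length.

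**Figure D1:**
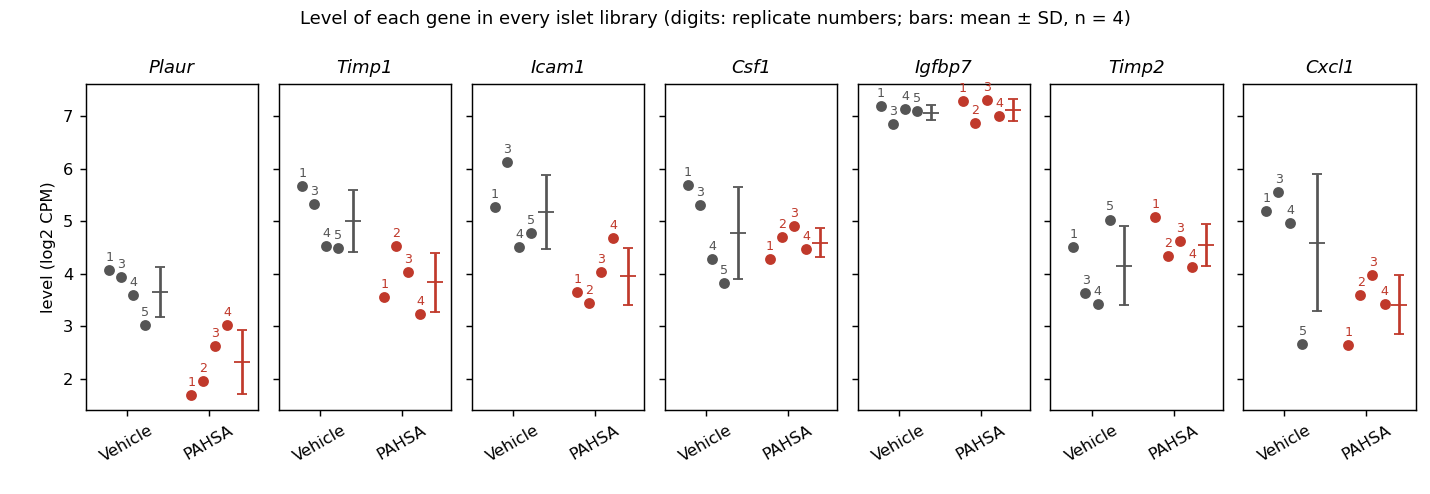
Level of each of the 7 genes in log2 CPM (vertical axis) in the 4 vehicle and 4 PAHSA libraries (points, with replicate numbers), with mean ± SD. Plaur, Timp1 and Icam1 each have 3 of 4 PAHSA libraries below all vehicle libraries, and Igfbp7 lies between 6.85 and 7.30 in all 8.

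Mean levels of 5 of the 7 genes were lower in PAHSA and of 2 higher. Across the 12231 genes tested, 50.9% were lower. Plaur, Icam1, Cxcl1 and Timp1 differed by more than 1 on the log2 scale, and Csf1 by much less. The median difference of the 7 was -1.17, beside -0.006 over all genes tested. By limma 0 of the 12231 genes passed an adjusted p of 0.05 (0%), while 4.29% were lower and 3.02% higher at an unadjusted p under 0.05. In 0 of the 7 did the 4 PAHSA libraries lie wholly below the 4 vehicle libraries, which 1.95% of all genes did. As the list was chosen on this contrast, nothing is read from these counts.

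Plaur (ENSMUSG00000046223, chromosome 7 from 24462484 to 24475968, GRCm38) encodes the receptor that holds the protease urokinase at the cell surface. Its levels were 4.08, 3.93, 3.59 and 3.01 log2 CPM in vehicle, and 1.68, 1.95, 2.63 and 3.02 in PAHSA. The groups met at one point, since PAHSA replicate 4 and vehicle replicate 5 were level within 0.01. The mean was 3.65 ± 0.47 in vehicle and 2.32 ± 0.61 in PAHSA (SD, n = 4), a difference of -1.33 (SE 0.40), or 2.52-fold lower.

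Plat and Lrp1, partners of Plaur in the plasminogen system, were lower on average too. Plat, which encodes tissue plasminogen activator, lay at 5.79, 5.80, 6.17 and 5.65 log2 CPM in vehicle and at 4.73, 4.82, 5.12 and 5.86 in PAHSA, a difference of -0.72 (SE 0.24). Only PAHSA replicate 4 reached the vehicle range. Lrp1, a clearance receptor for protease complexes, differed by -0.61 (SE 0.48) with 2 of 4 PAHSA libraries below the vehicle range and 1 above it. Its difference was -0.19 without PAHSA replicate 1, -0.39 without PAHSA replicate 3 and -0.99 without PAHSA replicate 4. Plau, the gene of urokinase itself, had a mean level of -0.56 ± 1.13 in vehicle and -0.60 ± 0.57 in PAHSA (SD, n = 4) and was below the level needed for testing.

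Timp1 (ENSMUSG00000001131, chromosome X from 20870166 to 20874735) and Timp2 (ENSMUSG00000017466, chromosome 11 from 118301069 to 118355740) encode tissue inhibitors of matrix metalloproteases. Timp1 was at 5.67, 5.32, 4.52 and 4.49 log2 CPM in vehicle and at 3.56, 4.52, 4.02 and 3.23 in PAHSA. Vehicle replicates 1 and 3 were the highest, and PAHSA replicate 2 was level with vehicle replicates 4 and 5. The difference was -1.17 (SE 0.35), or 2.25-fold lower. Timp2 went the other way on average. It was at 4.51, 3.63, 3.43 and 5.03 in vehicle and at 5.07, 4.34, 4.63 and 4.13 in PAHSA. Vehicle replicates 3 and 4 lay below all PAHSA libraries, PAHSA replicate 1 lay just above all vehicle libraries, and the other vehicle libraries lay within the PAHSA range. The difference was 0.39 (SE 0.36), and lay between 0.15 (without vehicle replicate 4) and 0.69 (without vehicle replicate 5) when 1 library was left out. It was 0.22 without vehicle replicate 3 and also without PAHSA replicate 1.

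Per length, Timp1 exceeded Timp2 by 9.37, 13.5, 8.99 and 2.88 times in vehicle. The ratio was 1.47, 4.74, 2.76 and 2.25 in PAHSA. Vehicle replicate 5 therefore lay among the PAHSA libraries in this ratio, between replicates 3 and 2. These ratios use the longest coding transcripts. With median transcript lengths they were 5.75, 8.29, 5.52 and 1.77 in vehicle and 0.90, 2.91, 1.70 and 1.38 in PAHSA, so that Timp1 was then below Timp2 in PAHSA replicate 1. Timp3, a further inhibitor that binds the matrix, was at 4.75, 3.77, 4.79 and 4.48 log2 CPM in vehicle and 3.87, 3.83, 2.92 and 3.02 in PAHSA, a difference of -1.04 (SE 0.33). Only vehicle replicate 3 lay among the PAHSA values. Among proteases, Mmp14, a membrane-bound collagenase that activates Mmp2, differed by -0.94 (SE 0.59; -0.49 without PAHSA replicate 4 and -0.55 without vehicle replicate 1). Mmp9, a gelatinase, lay between 2.51 and 4.21 in vehicle and at -6.19, -6.15, 1.85 and 2.41 in PAHSA, with replicates 1 and 2 at the lowest value of their libraries, so its fitted difference of -5.07 (SE 1.92) depends on the small count added before the logarithm. On log2(CPM + 1) it was -1.9996. Reck, a membrane-anchored inhibitor of these proteases, differed by -0.54 (SE 0.68), and by 0.25 without PAHSA replicate 2.

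Icam1 (ENSMUSG00000037405, chromosome 9 from 21015985 to 21028817) encodes an adhesion molecule to which white blood cells bind through integrins. It was at 5.27, 6.12, 4.51 and 4.77 log2 CPM in vehicle, and at 3.64, 3.45, 4.03 and 4.68 in PAHSA. PAHSA replicate 4 lay inside the vehicle range and the other 3 below it. The difference was -1.22 (SE 0.37), or 2.33-fold lower. Exons of Icam1 overlap those of the antisense gene Gm47079, whose reads this kit, which does not mark strand, cannot tell apart where they overlap. Vcam1, a second adhesion molecule of the vessel wall, varied between -2.11 and 3.34 in vehicle and between -2.82 and 1.79 in PAHSA, and its difference of -1.48 (SE 1.37) was of the size of its error. It was -0.67 without vehicle replicate 1 and -2.48 without vehicle replicate 3. The integrin genes Itgal and Itgb2, whose products form the main receptor for Icam1, and Icam2 were not analysed here.

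Cxcl1 (ENSMUSG00000029380, chromosome 5 from 90891241 to 90893115) encodes a chemokine that attracts neutrophils. It was at 5.19, 5.55, 4.96 and 2.66 log2 CPM in vehicle and at 2.64, 3.58, 3.98 and 3.42 in PAHSA. Vehicle replicate 5 was as low as the lowest PAHSA library, and the other 3 vehicle libraries were above all PAHSA libraries. The difference was -1.18 (SE 0.57), and -1.83 without vehicle replicate 5.

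Ccl2, a chemokine for monocytes, had the same vehicle library low. It was at 3.22, 3.32, 3.56 and 1.47 log2 CPM in vehicle and at 1.01, 0.32, 0.98 and 2.33 in PAHSA, a difference of -1.73 (SE 0.60). Cxcl10, an interferon-induced chemokine, overlapped between the groups and differed by -0.40 (SE 0.43). When 1 library was left out it lay between -0.69 (without PAHSA replicate 2) and -0.08 (without PAHSA replicate 3), with -0.20 without vehicle replicate 1 and -0.26 without PAHSA replicate 1. Cxcl2, Cxcl12 and Cxcr2, a receptor for Cxcl1, were below the level needed for testing. The mean of Cxcr2 was 0.02 ± 0.61 in vehicle and -0.29 ± 0.34 in PAHSA (SD, n = 4).

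Csf1 (ENSMUSG00000014599, chromosome 3 from 107741048 to 107760469) encodes a growth factor on which macrophages depend. It was at 5.68, 5.31, 4.27 and 3.81 log2 CPM in vehicle and at 4.27, 4.69, 4.91 and 4.47 in PAHSA. All 4 PAHSA libraries lay inside the vehicle range. The difference was -0.19 (SE 0.38), and lay between -0.50 (without vehicle replicate 5) and 0.12 (without vehicle replicate 1) when 1 library was left out. It was -0.35 without vehicle replicate 4, -0.29 without PAHSA replicate 3, -0.08 without PAHSA replicate 1 and -0.01 without vehicle replicate 3. The vehicle libraries were more spread (SD 0.87) than the PAHSA libraries (SD 0.28). Il34 encodes the other ligand of the same receptor, and its groups did not overlap. It was at 2.54, 2.10, 2.78 and 2.60 in vehicle and at -0.22, 0.29, 0.48 and 1.03 in PAHSA, a difference of -2.11 (SE 0.49), or 4.32-fold lower, which missed the adjusted threshold. The receptor gene Csf1r was not analysed here.

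Igfbp7 (ENSMUSG00000036256, chromosome 5 from 77349240 to 77408041) encodes a secreted protein that binds insulin-like growth factors and matrix. It was at 7.20, 6.85, 7.13 and 7.09 log2 CPM in vehicle, and at 7.28, 6.86, 7.30 and 7.01 in PAHSA. The groups lay on top of each other, with a difference of 0.05 (SE 0.13) and a 95% confidence interval from -0.24 to 0.33. It was the least variable of the 7 genes, with an SD of 0.15 in vehicle and 0.22 in PAHSA. Its exons overlap those of Polr2b on the opposite strand. Of its relatives, Igfbp5 differed by -1.19 (SE 0.49; -0.72 without PAHSA replicate 3) and Igfbp4 by -0.40 (SE 0.24; -0.25 without PAHSA replicate 2 and also without vehicle replicate 1, -0.60 without vehicle replicate 4). Igfbp3 was below the level needed for testing. The receptor gene Igf1r differed by -0.02 (SE 0.18).

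**Figure D2:**
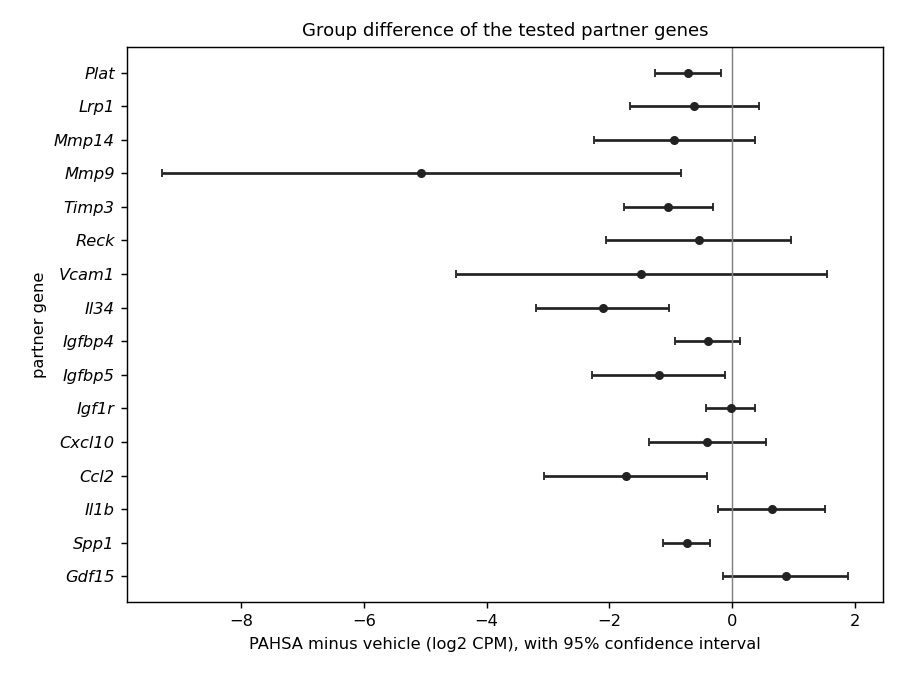
Difference PAHSA minus vehicle in log2 CPM (horizontal axis; point and 95% confidence interval from limma, n = 4 per group) for 16 tested partner genes. Of these, 14 points lie below 0, with Igf1r at only -0.02, where 50.9% of all genes tested were lower. Il1b at 0.65 and Gdf15 at 0.87 lie above 0, and 0 of the 16 passed over all genes.

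Other secreted factors of the same class went in both directions. Il6, a cytokine named in most accounts of the secretory phenotype, was at 2.57, 0.86, 2.23 and 2.09 log2 CPM in vehicle and at -6.19, -0.54, -6.31 and -6.32 in PAHSA. PAHSA replicates 1, 3 and 4 are listed at the lowest value of their libraries, and the gene was below the mean level needed for testing. Spp1, the gene of the secreted phosphoprotein osteopontin, was at 11.52, 11.98, 11.60 and 11.14 in vehicle and 10.48, 11.10, 10.81 and 10.90 in PAHSA, a difference of -0.73 (SE 0.17). Its groups were separated by a narrow gap, and with quantile normalization the difference was -0.38. Il1b, a cytokine of macrophages, differed by 0.65 (SE 0.39) and Gdf15, a stress-induced hormone, by 0.87 (SE 0.46; 0.54 without PAHSA replicate 4). With the mean of the acinar markers as a covariate Gdf15 was at 0.16 (SE 0.46). With that of the endothelial markers it was at 1.34 (SE 0.43). Tnfrsf1b, a receptor of tumour necrosis factor, was below the level needed for testing.

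Across 7 lists of genes of the same systems without the 7 members, 71 of 143 listed genes were tested. They cover the plasminogen system, metalloproteases and inhibitors, adhesion molecules and integrins, chemokines and receptors, colony stimulating factors, insulin-like growth factors and their binding proteins, and other senescence factors. By limma 0 passed in either direction over all genes. Of the 71, 55 were lower and 16 higher, a share of 77.5% lower beside 50.9% of all genes, with a median difference of -0.33. At an unadjusted p under 0.05 were 19 lower and 1 higher, where 4.29% and 3.02% of all genes were. Among the 71 the groups did not overlap for 9 lower genes and 2 higher ones, where 1.95% and 2.06% of all genes were so separated. The 9 were Anxa2, Mmp9, Bsg, Adamts1, Cxcl14, Il34, Mif, Tnfrsf11b and Spp1, and the 2 were Csf2ra and Ang, named after their values were seen. By system, the lower and higher counts were 7 and 1 in the plasminogen list, 8 and 2 among metalloproteases and inhibitors, and 7 and 1 among adhesion genes. They were 4 and 2 among chemokines, 2 and 1 among colony stimulating factors, 5 and 1 in the growth factor and binding protein list, and 22 and 8 among the other factors. Some of these genes are also cell type markers, such as Pecam1 of vessel cells. As the lists were drawn up with earlier results of these data known, nothing is read from these counts.

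Markers of other cell types were summed in each library, and by limma 0 of them passed an adjusted p of 0.05. Of 18 stromal markers, which mark stellate cells, fibroblasts and pericytes, 15 were in the table. They summed to between 93.3 and 360 CPM in vehicle and between 51.0 and 168 CPM in PAHSA. Lum and Col6a1 were at the lowest value in at least 1 library. Of the 13 stromal markers tested, 8 had a lower mean in PAHSA and 5 a higher one, where 50.9% of all genes were lower. All 17 acinar markers were in the table and summed to between 9029 and 36499 CPM in vehicle and between 372 and 13727 CPM in PAHSA. All 17 had a lower mean in PAHSA, with a median difference of -2.26. By limma 14 of them had an unadjusted p under 0.05, where 4.29% of all genes were lower at that p. Of 14 endothelial markers 5 were in the table, at 42.1 to 81.0 CPM in vehicle and 36.9 to 52.0 in PAHSA, with Eng at the lowest value in 1 library. Of 16 macrophage and dendritic markers 3 were in the table, at 74.3 to 108 CPM in vehicle and 54.1 to 87.95 in PAHSA. Of 13 T, NK and B cell markers 2 were, at 0.575 to 1.49 CPM in vehicle and 1.09 to 2.44 in PAHSA, with Cd8a at the lowest value in at least 1 library. Of 9 duct markers 8 were, at 1486 to 1682 CPM in vehicle and 1513 to 1700 in PAHSA. Gene by gene, 6 of these 8 duct markers had a lower mean in PAHSA and 2 a higher one, with a median difference of -0.15. The 4 alpha cell genes summed to 60512 to 69133 CPM in vehicle and 66334 to 80313 in PAHSA, the 3 delta and PP cell genes to 7210 to 9287 and 6328 to 8078, and 2 of 6 Schwann cell genes to 1.11 to 4.29 and 0.876 to 1.81. Stromal and acinar genes enter the fits below, and with the endothelial or the macrophage mean as a covariate the median difference of the 7 genes was -1.25 or -1.28. For the other markers their part in the results was not tested.

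The stromal genes Col1a2, Col3a1 and Sparc, for 2 collagen chains and a matrix protein, differed by -0.72 (SE 0.56), -1.40 (SE 0.88) and -0.87 (SE 0.42). Their mean was 6.05, 5.70, 4.89 and 4.08 log2 CPM in vehicle and 2.57, 4.75, 4.27 and 5.14 in PAHSA. PAHSA replicate 1 was lowest and vehicle replicates 1 and 3 were highest. With this mean as a covariate in the limma fit, the difference was -0.89 (SE 0.38) for Plaur, -0.89 (SE 0.38) for Timp1 and -0.88 (SE 0.39) for Icam1. For Cxcl1 it was -0.47 (SE 0.50), for Csf1 0.26 (SE 0.35), for Timp2 0.06 (SE 0.38) and for Igfbp7 -0.04 (SE 0.15). The median over the 7 was then -0.47 in place of -1.17. In that fit 0 of 12231 genes passed an adjusted p of 0.05 (0%) and 676 had an unadjusted p under 0.05 (5.53%). Of the 71 other genes of the same systems 52 were lower with this covariate, with a median of -0.26, beside 50.6% of all genes and their median of -0.004.

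With the acinar mean as the covariate the differences were -1.75 (SE 0.46) for Plaur, -1.82 (SE 0.35) for Icam1, -1.28 (SE 0.72) for Cxcl1 and -0.95 (SE 0.43) for Timp1. Plaur and Icam1 thus lay further below vehicle with the acinar mean and nearer to it with the stromal mean. The acinar mean was 4.06 log2 CPM in PAHSA replicate 4 and between 7.12 and 10.6 in the other libraries. PAHSA replicate 4 also held the highest PAHSA levels of Plaur and Icam1. How far these differences rest on that library was not tested. Timp2 was at 0.48 (SE 0.46), Csf1 at -0.34 (SE 0.47) and Igfbp7 at 0.07 (SE 0.17).

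**Figure D3:**
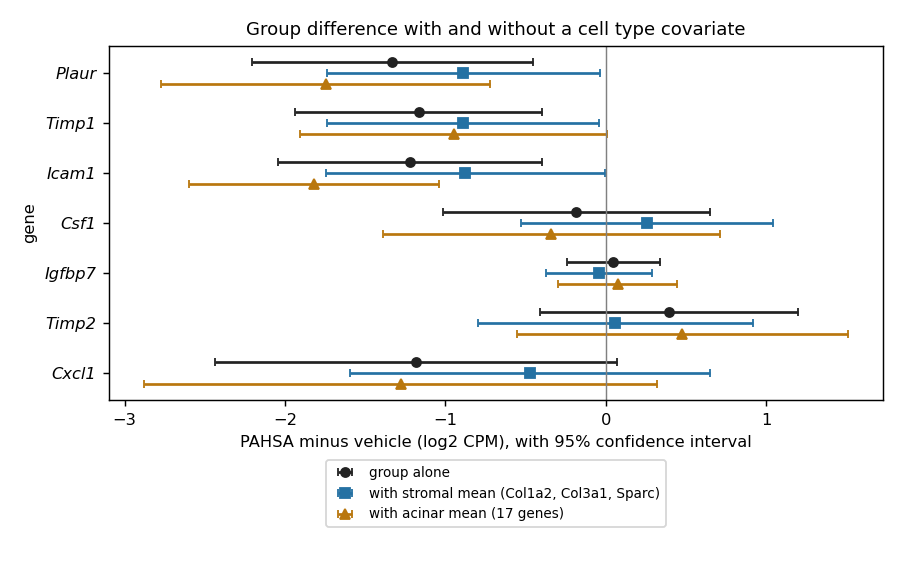
Difference PAHSA minus vehicle in log2 CPM (horizontal axis; point and 95% confidence interval, n = 4 per group) for each of the 7 genes in the fit with group alone, with the mean of Col1a2, Col3a1 and Sparc, and with the mean of 17 acinar genes. Plaur moves from -1.33 to -0.89 with the stromal mean, and Cxcl1 from -1.18 to -0.47.

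To set the group difference aside, each gene was compared with the stromal mean after both were centred on their group means (8 libraries, two-sided exact permutation over all reorderings within the groups, Benjamini-Hochberg adjustment over the 7 genes). None of the 7 passed an adjusted p of 0.05, and 3 had an unadjusted p under 0.05, all with a positive r. Of the 12228 tested genes outside the stromal mean 4.97% had such a p, and 3.06% had it with a positive r. Plaur had the highest Pearson's r over all 8 libraries, with r = 0.83 (exact p = 0.0226, adjusted 0.0932) and Spearman's rho = 0.81 (exact p = 0.0365, adjusted 0.255). Cxcl1 had r = 0.72 (exact p = 0.0365, adjusted 0.0932) and rho = 0.43 (exact p = 0.267, adjusted 0.468), and Csf1 had r = 0.70 (exact p = 0.0399, adjusted 0.0932) and rho = 0.62 (exact p = 0.104, adjusted 0.365). Without vehicle replicate 5 and PAHSA replicate 1, the libraries farthest out in the stromal mean, r was 0.50 for Plaur, -0.07 for Cxcl1 and 0.60 for Csf1. For Cxcl1 r was 0.71 without vehicle replicate 5 alone and 0.74 without PAHSA replicate 1 alone. Its r therefore fell when both were left out and not with either alone.

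The other 4 genes had a Pearson's r nearer 0 over all 8 libraries, an order that rho and the smaller set of libraries did not keep. Icam1 had r = 0.56 (exact p = 0.174, adjusted 0.243) and rho = 0.50 (exact p = 0.236, adjusted 0.468), with r = 0.60 without the same pair of libraries. Timp1 had r = 0.49 (exact p = 0.238, adjusted 0.277) and rho = 0.24 (exact p = 0.642, adjusted 0.642), with r = 0.30 without that pair but r = 0.91 (exact p = 0.0208, adjusted 0.0729) without PAHSA replicate 4. Timp2 had r = -0.56 (exact p = 0.153, adjusted 0.243) and rho = -0.38 (exact p = 0.344, adjusted 0.474), and its r turned to 0.39 without that pair. Igfbp7 had r = -0.48 (exact p = 0.302, adjusted 0.302) and rho = -0.43 (exact p = 0.406, adjusted 0.474), with r = -0.35.

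**Figure D4:**
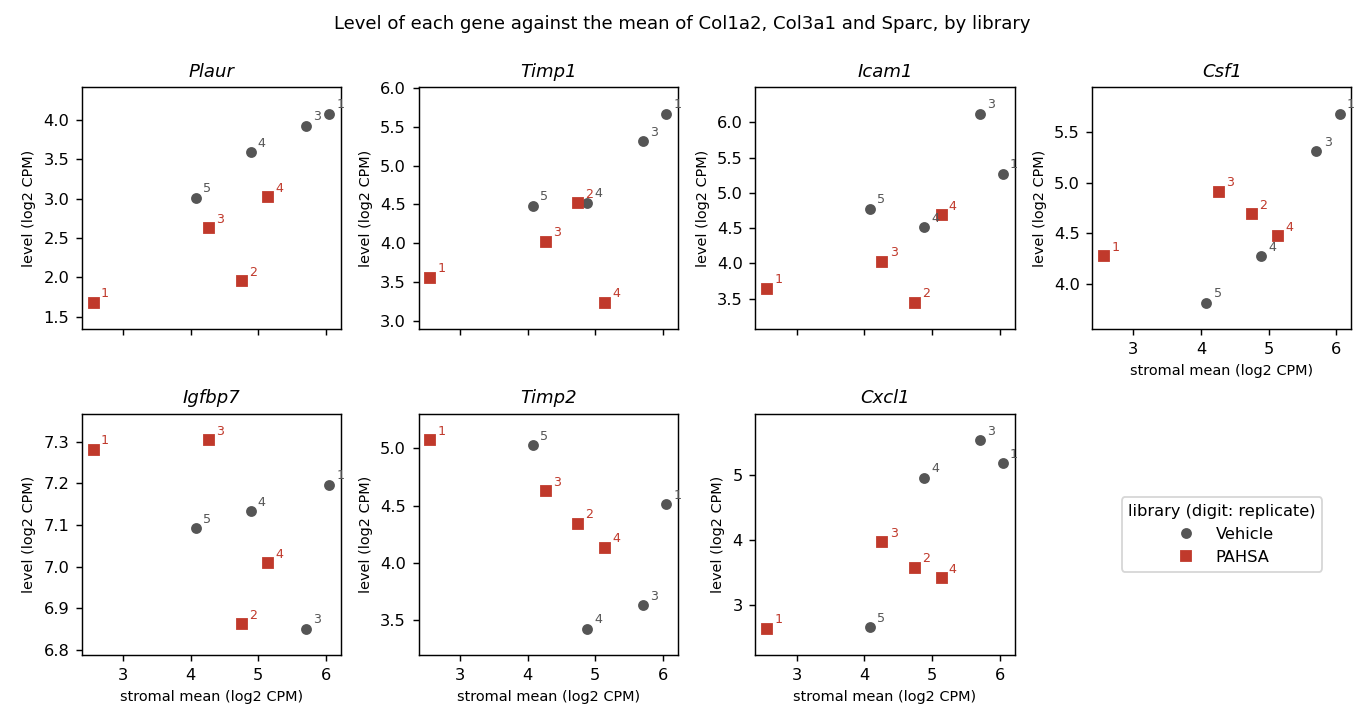
Level of each of the 7 genes (vertical axis, log2 CPM) against the mean of Col1a2, Col3a1 and Sparc (horizontal axis, log2 CPM) in the 4 vehicle (circles) and 4 PAHSA libraries (squares), with replicate numbers. For Plaur the vehicle libraries lie in the order of the stromal mean, and PAHSA replicate 2, at 1.95 with a stromal mean of 4.75, lies below its neighbours in that mean.

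Among themselves the 7 genes did not vary as one block within the groups. Over their 21 pairs the centred r ran from -0.72 to 0.81, with 11 positive, a median of 0.09 and 0 pairs past an adjusted p of 0.05 by the same exact permutation test. The highest was between Csf1 and Cxcl1, at r = 0.81 (exact p = 0.0104), and the next between Timp1 and Csf1, at r = 0.81 (exact p = 0.0399). The lowest was between Timp2 and Cxcl1, at r = -0.72 (exact p = 0.0712). Every pair among Plaur, Timp1, Icam1, Csf1 and Cxcl1 had a positive r, the smallest being 0.09 for Timp1 and Icam1. Igfbp7 and Timp2 had r = 0.49 with each other. Both had a negative r with all the other genes, nearest 0 for Timp1 and Timp2 at -0.03. That split was seen in the values and was not tested. Vehicle replicate 1 held the highest value of 3 of the 7 genes and vehicle replicate 3 of 2, while PAHSA replicate 1 held the lowest value of 2.

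Over all 8 libraries and 11481 other named genes, the patterns most like each gene by Pearson's r of log2 CPM are given as a description. For Plaur they were Syt4 (r = 0.98) and AI661453 (r = 0.97), for Timp1 Col5a2 (r = 0.99), a collagen gene, and Trib1 (r = 0.97), and for Icam1 Lbp (r = 0.97) and Sdk1 (r = 0.95). For Cxcl1 they were Steap4 (r = 0.97) and Serpina3g (r = 0.96), for Csf1 Parn (r = 0.95) and Riok3 (r = 0.94). For Igfbp7 they were Gnpda2 (r = 0.95) and Utp18 (r = 0.94), and for Timp2 Calml4 and Ppfia1 (both r = 0.97). The libraries share the group difference, so these values also reflect it. They are also the highest among 11481 genes over only 8 libraries, so no link between the genes is read from them. Between 6 genes (for Csf1) and 30 genes (for Plaur) had r above 0.9.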

How the data were processed

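RNA of whole islets was sequenced from 4 vehicle and 4 PAHSA libraries made with Nextera XT, per the labels' protocols, a kit that does not mark strand. The deposited values are log2 CPM computed by the authors, with a scaling that no source used here states. Their CPM sum to between 965680 and 1069261 per library. The tools were kallisto and limma, per the submitters' processing notes; the build and annotation behind them were not given in the sources used here. From the lowest value, taken as 0 counts with 0.5 added, approximate counts were computed to describe depth, of which 47.8% to 51.5% lay within 0.01 of a whole number. Any 1 gene sits at that lowest value in at most 3 libraries. Symbols, lengths and coordinates came from GENCODE M21 (GRCm38), matching 13669 of 13725 identifiers, and upstream sequences from RefSeq (GRCm38.p6), matching all 7 genes.

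Genes with a mean log2 CPM above 0 were tested with limma 3.58.1 in R 4.3.3 (mean-variance trend, group as the only term, two-sided, Benjamini-Hochberg adjustment over 12231 genes, threshold 0.05). The procedure was tested on simulated data. Differences are PAHSA minus vehicle. For weakly expressed genes they depend on the small count added before the logarithm. The half-width of a 95% confidence interval was 0.55 in the median. P-values measure the spread between libraries, which may be pools. Named genes are the members, partners fixed by role, the 3 stromal genes, and the 2 genes most like each member in pattern. A further partner is not reported here. Members and lists were chosen with earlier results of these data known. Alternatives were other filters, scales, scalings and eBayes settings, cell type covariates, a replicate block and leaving out each library.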

Additional observations from a re-analysis of the deposited data

Results flagged for a closer look

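Within each group of 4 libraries, the gap of the highest and lowest library to its neighbour was set against the range and compared with Dixon's critical value. Of 60 such groups (the 7 genes and 23 partner genes), 3 exceeded it, where chance flags about 1 in 20. Ccl2 was at 1.47 log2 CPM in vehicle replicate 5, against 3.22 to 3.56 in the other vehicle libraries. Il6 was at -0.54 in PAHSA replicate 2, while the other PAHSA libraries are listed at their lowest values, -6.19 to -6.32. Tnfrsf1b was at its lowest value, -6.18, in vehicle replicate 4, against 1.63 to 2.90 in the others.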

How the results depend on the processing

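Over 20 alternatives to the fit, 0 genes passed an adjusted p of 0.05 in each. In them 4 to 6 of the 7 genes were lower in PAHSA (4 to 6 also when 1 library was left out). Of the 71 other genes of the same systems, 49 to 55 were lower in the alternatives that tested these 71. In the main fit 55 were, beside 50.9% of all genes. The count was 65 with no filter and 43 with a mean log2 CPM above 2, where other numbers of genes were tested. The median difference of the 7 moved from -1.17 to -0.47 with the stromal mean of 3 genes and to -0.60 with that of the whole list, and lay between -1.34 and -0.87 when 1 library was left out. Plaur, Timp1, Icam1 and Cxcl1 stayed below 0 and Timp2 above it in all 20, while the small differences of Csf1 and Igfbp7 changed sign in 3 and 7. The count of genes following the stromal mean was 0, and 0 to 1 when 1 library was left out (1, Plaur, without PAHSA replicate 2).

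Igf1r turned to 0.0066 with CPM rescaled to a common sum, 0.025 with the replicate block, 0.0064 with the 3-gene and 0.065 with the whole stromal mean, 0.14 with the endothelial and 0.11 with the macrophage mean, and between -0.16 and 0.095 when 1 library was left out. Lrp1 turned to 0.015 with the 3-gene stromal mean and 0.14 with the macrophage mean, Cxcl10 to 0.051 and 0.15 with the 3-gene and the whole stromal mean, and Reck to 0.34 with the block and 0.25 without PAHSA replicate 2 (-0.93 to 0.25 when 1 library was left out). With the acinar mean in place of the stromal mean, centred r turned to -0.60 for Plaur, -0.76 for Icam1, -0.19 for Csf1, -0.074 for Cxcl1, 0.12 for Igfbp7 and 0.11 for Timp2. With the endothelial mean it turned to -0.14 for Plaur, -0.36 for Timp1, -0.054 for Icam1, -0.29 for Csf1 and -0.17 for Cxcl1, and with the macrophage mean to -0.42 for Timp1, -0.082 for Icam1, -0.45 for Csf1 and -0.11 for Cxcl1. The cause was not tested.

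The numbers 1, 3 and 4 occur in both groups. Deviations of same-numbered libraries from their group means correlated at -0.02 for each of the 3 pairs. Such a correlation cannot show whether these libraries share a batch, and that was not tested further. With the replicate block 0 genes passed, 5 of the 7 genes were lower, with a median of -1.18, and 49 of the 71 other genes were lower. Vehicle replicate 5 and PAHSA replicate 2 have no same-numbered library in the other group, so these differences rest on the 3 pairs alone. Cxcl1 was then at -1.89 (SE 0.35) and Timp2 at 0.75 (SE 0.28), while Icam1 hardly moved, at -1.18 (SE 0.45).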
